A study of Arvicanthis niloticus with 59 samples.

Results

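Brown fat was set against fat labelled inguinal in Arvicanthis niloticus, the Nile grass rat. The pair was taken by the tissue names in the sample titles and made up 2 of the 59 libraries of an RNA-seq survey of 22 organs. Both libraries came from 1 untreated, healthy animal, T3F, and were made from polyadenylated RNA of whole tissue biopsies, so each holds every cell type of its biopsy. Age, housing temperature and hour of dissection are not given in the labels used here. Gene levels are in TPM, a share of all transcripts in a library, scaled to a fixed sum and corrected for transcript length, and each rests on an expected count, the number of reads that RSEM assigned to the gene. The brown fat library held 22420209 expected counts and the inguinal-labelled library 21053454, with 12309 and 13513 genes at 1 TPM or more. With 1 library a side there is no replicate, so no p-value is given and differences are described by size. Each fold is a ratio of TPM with an exact 95% interval from the 2 expected counts, which covers counting error only. Totals over the 59 libraries ran from 678819 to 41309569 expected counts with a median of 16406604. The library labelled left lung lobe of T3F held the highest sum of hepatocyte markers of the 57 libraries outside the pair, 154683 TPM, against its label; ranks over all 59 libraries do not use the labels.

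Brown fat burns fatty acids for heat: its adipocytes hold many mitochondria, and uncoupling protein 1 lets protons return across the inner mitochondrial membrane without making ATP. Noradrenaline acts through beta-adrenergic receptors and cyclic AMP to release fatty acids and to switch on the thermogenic genes, and thyroid hormone activated inside the cell by type 2 deiodinase adds to this. White fat stores triglyceride and secretes leptin, adiponectin and other adipokines. Inguinal fat is a subcutaneous white depot in mice, known for brown-like adipocytes that appear in the cold.

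The 3 genes that mark the pair differed in the direction of their labels. Ucp1 (ENSMUSG00000031710), which encodes uncoupling protein 1, stood at 3399 TPM in brown fat and 496.5 TPM in the inguinal-labelled library, a 6.85-fold difference (6.72 to 6.97). Dio2 (ENSMUSG00000007682), the gene of type 2 deiodinase, stood at 122.8 against 13.9 TPM and was 8.82-fold higher in brown fat (7.95 to 9.79). Lep (ENSMUSG00000059201), which encodes leptin, stood at 81.0 TPM in brown fat and 1699 TPM in the inguinal-labelled library, 21-fold higher there (19.7 to 22.3). The inguinal-labelled library thus held the highest Lep level of all 59 libraries and, at the same time, 14.6% of the Ucp1 level of brown fat.

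Both libraries carried the general adipocyte genes at high levels. Fabp4, the adipocyte fatty acid binding protein, stood at 22292 TPM in brown fat and 22755 TPM in the inguinal-labelled library. Pparg, the transcription factor that drives fat cell formation, stood at 654 and 660 TPM, and Plin1, which coats the lipid droplet, at 775 and 1037 TPM, within 2-fold. Adipoq, the adiponectin gene, was well expressed in both but unequal, at 4844 and 17429 TPM.

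Other libraries also held Ucp1. After brown fat the next highest level was 1152 TPM in the kidney artery library of the same animal, then 496.5 TPM in the inguinal-labelled library and 155.8 TPM in a pancreas library of animal T173F. The adrenal library that the labels place under adipose, also of T173F, held 92.2 TPM. Mesentery fat of T173F held 0.329 TPM, close to the median of 0.245 TPM over the 57 libraries outside the pair. So the inguinal-labelled library stood between brown fat and mesentery fat for Ucp1, far above the latter. In bulk tissue, fewer cells of a type and less RNA per cell cannot be told apart. The plot of fat genes in 5 libraries shows Ucp1, Dio2 and Ucp3 highest in brown fat, with the kidney artery and the inguinal-labelled library below it. Adrb3, also plotted, was higher in the inguinal-labelled library than in brown fat. Lep, Agt and Ccdc80 lay near the mesentery level in the inguinal-labelled library.

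**Figure D1:**
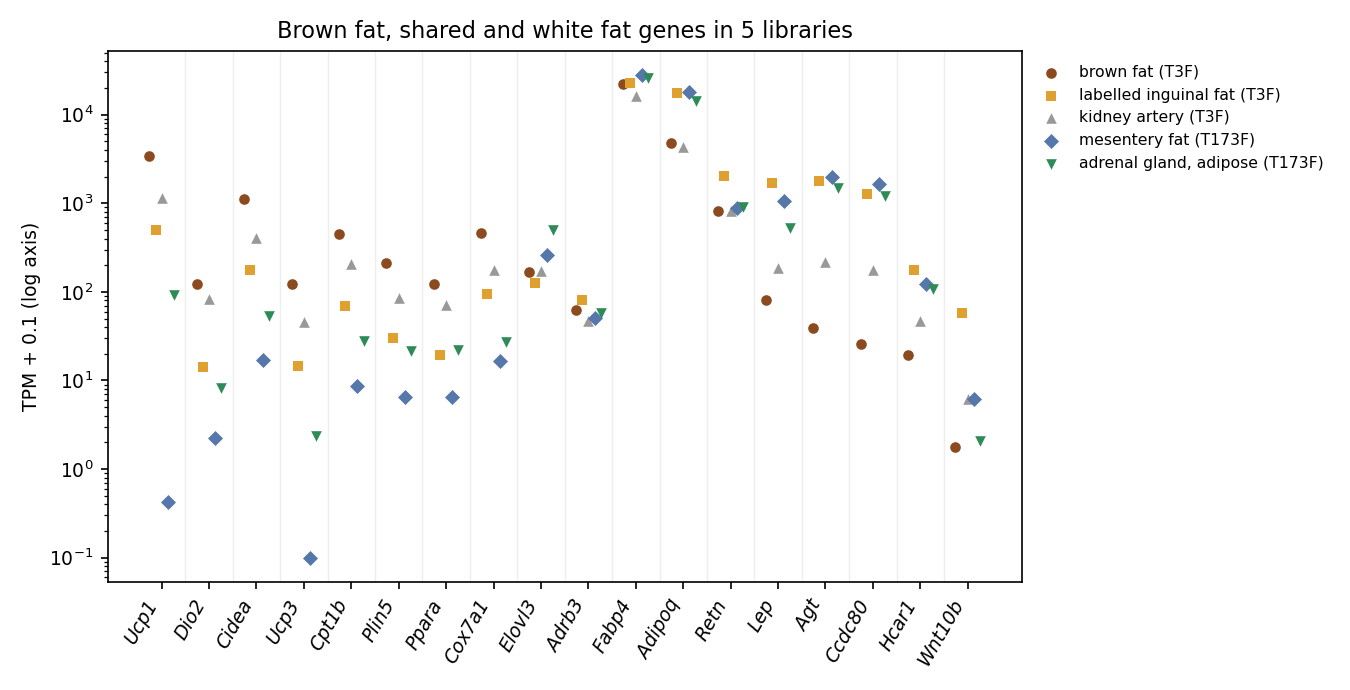
TPM plus 0.1 on a log axis for 18 brown fat, shared and white fat genes in 5 libraries, 1 point a library. Ucp1 runs from 3399 TPM in brown fat to 0.329 TPM in mesentery fat, while Fabp4 lies within 16425 to 28167 TPM in all 5 libraries.

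Position genes gave a mixed reading of the inguinal label, set beside their pattern in mice. These are transcription factors that adipocytes keep from their place in the embryo: in mice Zic1 and Lhx8 mark interscapular brown fat, and the posterior Hox genes Hoxc8 to Hoxc10 mark inguinal white fat. Whether they mark the same depots in the Nile grass rat was not tested. Zic1 stood at 28.9 TPM in brown fat and 55.0 TPM in the inguinal-labelled library, and was listed at 0 in mesentery fat, the adipose-labelled adrenal library and the kidney artery, where 3 counts would be 1.87, 2.03 and 1.10 TPM. Lhx8 stood at 12.6 and 27.9 TPM, the latter the highest of all 59 libraries. Thus both genes that mark mouse interscapular brown fat were present in both libraries, at higher TPM in the one labelled inguinal. The median gene was also higher there on TPM, at -0.73 in log2 of brown over inguinal-labelled TPM. The direction of these 2 genes was therefore not set apart from the scaling.

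Tbx15, a T-box factor of subcutaneous and brown fat, stood at 34.4 TPM in brown fat and 76.3 TPM in the inguinal-labelled library, against at most 0.317 TPM in the kidney artery, mesentery and adipose-labelled adrenal libraries. En1, a homeobox factor of the dermomyotome and midbrain, stood at 3.32 and 25.5 TPM, a 7.68-fold difference (4.45 to 14.2). Irx1, another homeobox factor, stood at 21.1 and 52.9 TPM. These 3 genes were higher on TPM in the inguinal-labelled library and listed at 0 in mesentery fat.

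The posterior Hox genes were scarce in both. Hoxc8 had 0.632 TPM (2 counts) in brown fat and 5.21 TPM (15 counts) in the inguinal-labelled library, a ratio of 8.25 with an interval of 1.92 to 74.3. In mesentery fat it stood at 248 TPM, in the adipose-labelled adrenal library at 315 TPM and in the kidney artery at 120 TPM. Hoxc9 stood at 0.289 TPM (1 count) and 2.54 TPM (8 counts), against 62.8 TPM in mesentery fat. Hoxc10 stood at 0.814 and 0.579 TPM, while the skeletal muscle library of T426 held 163 TPM. Tcf21, a factor of visceral white fat, was listed at 0 in both libraries and stood at 41.1 TPM in mesentery fat.

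Counting the whole Hox family extended this. Of 39 Hox genes sought, 37 were in the tables. The 15 genes of groups 1 to 5, the anterior ones, summed to 319 TPM in brown fat and 388 TPM in the inguinal-labelled library, near the 348 TPM of mesentery fat. The 8 genes of groups 6 to 8 summed to 41.9 and 68.4 TPM, against 386 TPM in mesentery fat. The 14 genes of groups 9 to 13 summed to 1.75 and 5.57 TPM, against 64.8 TPM in mesentery fat, 112.6 TPM in the kidney artery and 279 TPM in the adipose-labelled adrenal library. Most of the Hox sum of both libraries thus lay in groups 1 to 5. On TPM, the sums of groups 6 to 8 and 9 to 13, and Tbx15, were higher in the inguinal-labelled library than in brown fat. So was the median gene. For these reasons the second library is called the inguinal-labelled library throughout. Which site its biopsy came from was not tested, and its white fat genes and its position genes are given as measured.

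**Figure D2:**
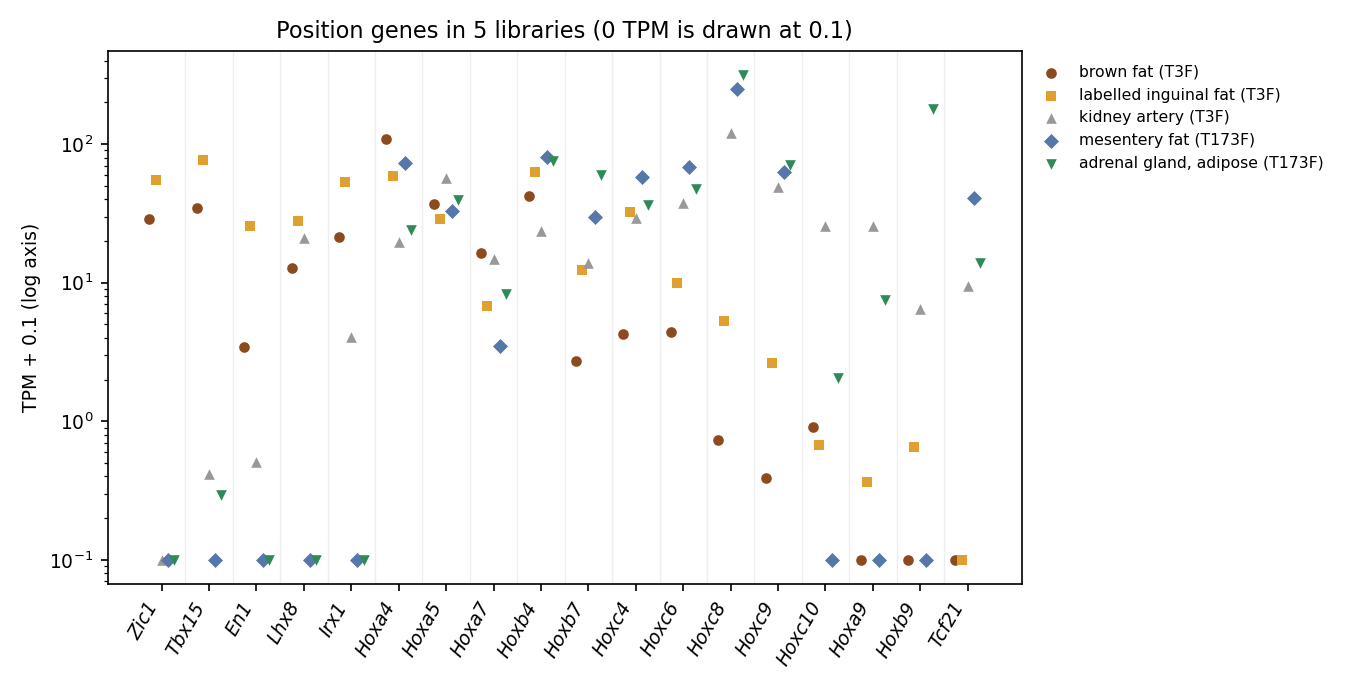
TPM plus 0.1 on a log axis for 18 position genes in 5 libraries, with a level of 0 drawn at 0.1. Zic1, Tbx15, En1 and Irx1 are above 3 TPM in both libraries of the pair and at most 3.94 TPM in the other 3, while Hoxc8 and Hoxc9 are above 49 TPM in the other 3 and at most 5.21 TPM in the pair.

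Mitochondrial transcripts set the scale of the comparison. The 12 rows of the mitochondrial genome, whose symbols start with mt-, took 37.0% of TPM in brown fat, the highest share of all 59 libraries, and 9.94% in the inguinal-labelled library, a ratio of 3.73. In the other 57 libraries the share ran from 0.126% to 30.3% with a median of 3.60%. Of the 12 rows, 7 passed the filter used throughout, at least 1 TPM and 10 expected counts in the higher library, and all 7 were at least 2-fold higher in brown fat. mt-Nd1, a complex I subunit, stood at 223037 and 58062 TPM, 3.84-fold higher (3.83 to 3.85). mt-Cytb, the complex III cytochrome, stood at 10965 and 2337 TPM, 4.69-fold higher (4.64 to 4.74). mt-Nd1 and mt-Nd5 together took 95.5% of the mitochondrial TPM in brown fat and 95.4% in the other library, and 2 rows were listed at 0 in both. How RSEM split reads among similar sequences was not tested for these rows.

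TPM is a share, so a larger mitochondrial share leaves less for every other gene. The median of all 13281 genes that passed the filter was -0.73 in log2 of brown over inguinal-labelled TPM, with 1 TPM added to each. Removing the mt- rows and rescaling moved the median by 0.44 to -0.29. On TPM, 574 genes (4.32%) were at least 2-fold higher in brown fat and 4280 (32.2%) at least 2-fold higher in the inguinal-labelled library, so brown fat held 11.8% of the genes past 2-fold. Without the mt- rows these were 1072 (8.08%) and 2365 (17.8%), a brown share of 31.2%, and with the median gene set to 0 they were 1452 (10.9%) and 1470 (11.1%), a brown share of 49.7%. At 4-fold the counts on TPM were 126 (0.949%) and 1076 (8.1%), without the mt- rows 286 (2.15%) and 746 (5.62%), and with the median gene set to 0 they were 389 (2.93%) and 501 (3.77%). Pathway lists are therefore given on TPM and again without the mt- rows, beside these shares. The histogram of all genes shows both distributions.

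**Figure D3:**
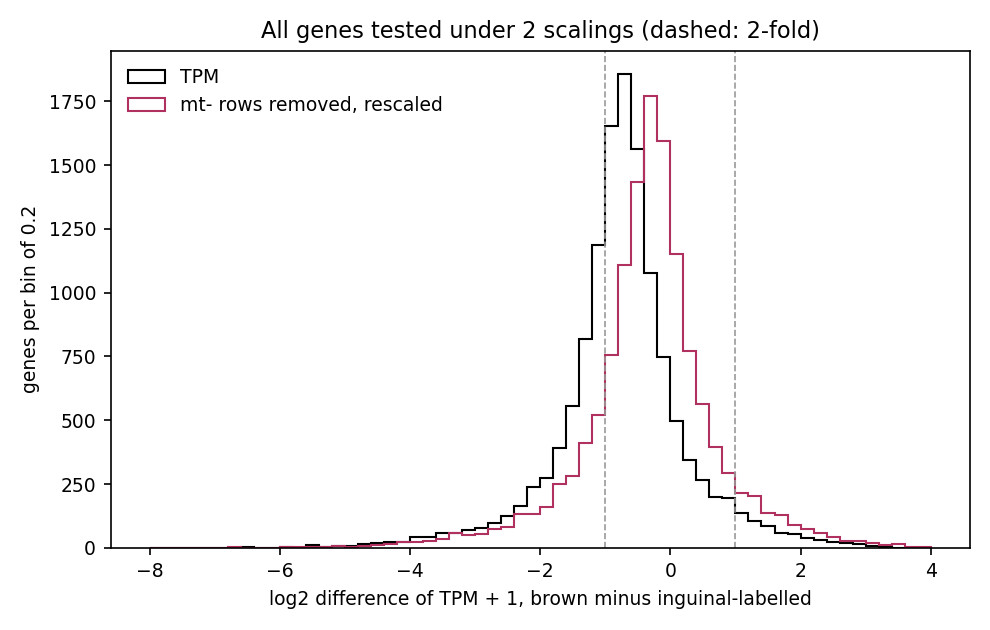
Number of genes per 0.2 of log2 difference, brown minus inguinal-labelled, for TPM (black) and for TPM rescaled without the mt- rows (red), with dashed lines at 2-fold. The median gene lies at -0.73 on TPM and at -0.29 without the mt- rows.

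Thermogenic genes were mostly higher in brown fat. Of 38 listed symbols 36 were in the tables and 34 passed the filter. On TPM 23 were at least 2-fold higher in brown fat and 2 at least 2-fold higher in the inguinal-labelled library. The median log2 difference was 1.77 against -0.73 over all genes. Without the mt- rows the counts were 25 and 0 and the median was 2.28 against -0.29. In 9 of the 34, or 26.5%, brown fat was the highest of all 59 libraries, beside 1.26% of all genes tested.

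These effectors of heat production were at least 4-fold higher in brown fat. Cidea, a lipid droplet protein that marks brown adipocytes, stood at 1127 and 176 TPM, 6.42-fold higher in brown fat (6.22 to 6.62). Plin5, which ties lipid droplets to mitochondria, stood at 210.6 and 30.4 TPM, 6.94-fold higher (6.47 to 7.44). Gk, the glycerol kinase that lets brown fat reuse glycerol, stood at 57.9 and 8.88 TPM. Otop1, a proton channel gene active in brown fat, stood at 281 and 54.1 TPM, and Letmd1, a mitochondrial protein needed for heat production, at 204 and 48.6 TPM. Acot11, a thermogenesis-linked acyl-CoA thioesterase, had the largest difference of the list, 45.1 against 4.38 TPM, or 10.3-fold (8.86 to 12). Over the 16 members past 4-fold the folds ran from 4.2 to 10.3 with a median of 6.42.

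The transcriptional regulators included members past and within 2-fold. Ppara, the nuclear receptor of fatty acid oxidation, stood at 123 and 19.2 TPM, 6.41-fold higher in brown fat (5.98 to 6.88). Ppargc1b stood at 32.1 and 5.51 TPM, while Ppargc1a, the cold-induced coactivator of mitochondrial biogenesis, had only 4.24 and 1.31 TPM, 3.24-fold apart (2.40 to 4.43). Prdm16, which holds the brown fat programme, stood at 6.96 and 1.42 TPM. Ebf2 (36.6 and 48.8 TPM) and Irf4 (22.0 and 28.1 TPM), both brown fat regulators, differed by less than 2-fold. Thus the level of Ppargc1a was low in a library with abundant Ucp1.

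The other members of the list were split on TPM between those past 2-fold toward brown fat and those within 2-fold. Slc27a2, a fatty acid transporter, stood at 135 and 18.7 TPM and Acot2, a mitochondrial thioesterase, at 339 and 79.4 TPM. Pank1, which starts coenzyme A synthesis, stood at 27.7 and 5.60 TPM. Esrrg, an orphan nuclear receptor of oxidative genes, stood at 5.60 and 0.872 TPM, while its relatives Esrra (68.5 and 45.7 TPM) and Esrrb (1.76 and 1.29 TPM) were within 2-fold on TPM. Clstn3, a calsyntenin gene, stood at 53.6 and 10.8 TPM, Kcnk3, a potassium channel, at 66.0 and 26.6 TPM and Ntrk3, a neurotrophin receptor, at 26.2 and 8.65 TPM. Sirt3, a mitochondrial deacetylase, stood at 15.6 and 9.29 TPM and Pm20d1, a secreted enzyme, at 3.71 and 6.32 TPM, both within 2-fold on TPM. Without the mt- rows Sirt3 was past 2-fold toward brown fat, at 1.19 in log2. Gpr3 and Bmp8b did not pass the filter, with Bmp8b listed at 0 in both. Cox8b was not analysed here, and the listed symbol Gyk is a second name of Gk.

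Some genes known from brown fat were within 2-fold or higher in the inguinal-labelled library. Elovl3, a cold-induced fatty acid elongase, stood at 168 and 126 TPM. Adrb3, the beta-3 adrenergic receptor, stood at 62.3 and 81.9 TPM, the highest and second highest of the series in the order inguinal-labelled, brown. S100b, a calcium-binding protein that brown adipocytes secrete to sympathetic nerve, stood at 525 and 1093 TPM. Lhx8 and S100b were the only members past 2-fold in the other direction, and neither was past it without the mt- rows.

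The uncoupling protein family split by member, with 2 of 8 at least 2-fold higher in brown fat and 2 in the inguinal-labelled library on TPM, and 3 and 1 without the mt- rows. Ucp1 is described above. Ucp3, found in muscle and brown fat, stood at 122.5 and 14.4 TPM, 8.52-fold higher in brown fat (7.67 to 9.47) and above every other library. Ucp2, which immune and many other cells express, stood at 7.57 and 52.6 TPM, 6.95-fold higher in the inguinal-labelled library (6.11 to 7.93). The adenine nucleotide carriers Slc25a4 (571 and 537 TPM) and Slc25a5 (354 and 229 TPM) differed by less than 2-fold on TPM. Slc25a30 was past 2-fold toward the inguinal-labelled library on TPM, at 14.5 and 30.8 TPM, and not past it without the mt- rows.

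Fatty acid oxidation genes were mostly higher in brown fat. All 33 genes passed the filter; 23 were at least 2-fold higher in brown fat and 2 in the inguinal-labelled library, with a median of 1.80, and without the mt- rows 29 and 1. Cpt1b, the muscle-type carnitine transferase that admits fatty acids to mitochondria, stood at 449 and 69.7 TPM, 6.45-fold higher (6.24 to 6.66). Cpt1a, its liver-type counterpart, had 10.3 and 17.9 TPM. Fabp3, a fatty acid carrier of heart and brown fat, stood at 3853 and 677 TPM, Acadm, which acts on medium-chain fatty acids, at 692 and 111 TPM, and Acadvl, which acts on very long chains, at 4039 and 920 TPM. Pdk4, the kinase that turns off pyruvate oxidation, stood at 191 and 30.2 TPM. Acsl5, an acyl-CoA synthetase, stood out in the other direction with 4.58 and 25.97 TPM. Brown fat was the highest of all 59 libraries for 19 of the 33.

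The citric acid cycle and the nuclear subunits of the respiratory chain were higher in brown fat by smaller folds. Of 23 cycle genes, 16 were at least 2-fold higher and 1 lower, with a median of 1.56, and without the mt- rows 20 and 1. Ogdh, a subunit of the oxoglutarate dehydrogenase complex, stood at 486 and 122 TPM, and Mdh2, mitochondrial malate dehydrogenase, at 2009 and 660 TPM. The 1 gene past 2-fold toward the inguinal-labelled library was Pcx, pyruvate carboxylase, which refills the cycle and feeds fat synthesis, at 200 and 589 TPM.

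Complex I had 18 of 36 nuclear subunits at least 2-fold higher in brown fat and 0 lower (median 1.02), complex II 3 of 4, complex III 8 of 9 (median 1.37) and complex IV 10 of 14 with 1 lower (median 1.28). Without the mt- rows the same counts were 32 of 36, 4 of 4, 9 of 9 and 12 of 14. Uqcrc1, a core subunit of complex III, stood at 291 and 71.6 TPM, 4.07-fold higher (3.95 to 4.19). Cox7a1, the heart and brown fat form of a complex IV subunit, stood at 463 and 95.6 TPM, 4.85-fold higher (4.53 to 5.19). The 1 complex IV gene higher in the inguinal-labelled library was Cox4i2, an isoform tuned to low oxygen, at 15.0 and 48.0 TPM. The medians of these 4 complexes lay below the median of 1.83 of the 7 tested mt- rows.

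ATP synthase, which uncoupling bypasses, had subunits past 2-fold in both directions. Of 16 genes, 6 were at least 2-fold higher in brown fat and 2 at least 2-fold lower, with a median of 0.92, and without the mt- rows 10 and 2. Atp5b, the catalytic beta subunit, stood at 3512 and 1060 TPM, 3.31-fold higher (3.28 to 3.34). Atp5g1, which encodes 1 of the interchangeable precursors of the membrane ring subunit c, stood at 3.23 and 24.4 TPM, 7.56-fold lower in brown fat (6.14 to 9.40). That brown fat level was the lowest of all 59 libraries, whose median outside the pair was 59.7 TPM. Atp5g3, another precursor of the same subunit, stood at 198 and 395 TPM. Atp5g2, a further precursor of it, went the other way, at 344.7 and 246.2 TPM. Atpif1, the natural inhibitor of the enzyme, stood at 14.8 and 49.2 TPM, 58th of 59 in brown fat. These genes have close copies, among which RSEM may have split reads.

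Signalling genes differed in both directions. Of 25 adrenergic and thyroid hormone genes, 5 were at least 2-fold higher in brown fat and 3 in the inguinal-labelled library. The shares of all genes were 4.32% and 32.2%. The median was -0.12, or 0.60 relative to the median gene. Without the mt- rows the counts were 8 and 2, beside 8.08% and 17.8% of all genes, and the median was 0.33. With the median gene set to 0 they were 9 and 2, beside 10.9% and 11.1%. The sign of the list median thus depended on the scaling, while it lay above the median gene. Adra1a, the alpha-1A adrenergic receptor, stood at 58.8 and 8.99 TPM, 6.54-fold higher in brown fat (5.33 to 8.08), the highest level of the series. Adra2a, an alpha-2 receptor that restrains cyclic AMP, stood at 0.187 and 5.16 TPM, higher in the inguinal-labelled library. Downstream, Adcy3, an adenylyl cyclase that makes cyclic AMP, stood at 33.9 and 7.84 TPM, and Pde4d, a phosphodiesterase that degrades it, at 21.5 and 4.00 TPM. Thus receptors differed in both directions, while Adcy3 and Pde4d, which make and remove the same messenger, were both higher in brown fat.

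White fat and adipokine genes were mostly higher in the inguinal-labelled library. Of 31 listed symbols, some of them second names of a gene already listed, 26 were in the tables and 24 passed the filter. On TPM 15 were at least 2-fold higher in the inguinal-labelled library and 4 in brown fat. The median was -1.39, or -0.67 relative to the median gene. Without the mt- rows the counts were 11 and 4. Beside Lep, Agt, the angiotensinogen gene, stood at 38.9 TPM in brown fat and 1808 TPM in the inguinal-labelled library, 46.5-fold higher there (43.1 to 50.2) and near the 1992 TPM of mesentery fat. Ccdc80, a secreted matrix protein of white adipocytes, stood at 25.9 and 1259 TPM, 48.7-fold higher (46.5 to 51.1). Adipoq was 3.60-fold higher (3.56 to 3.64) and Retn, the resistin gene, 2.47-fold higher (2.39 to 2.55), at 816 and 2015 TPM.

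Receptors and regulators of white adipocytes followed the same direction. Hcar1, the lactate receptor that restrains lipolysis, stood at 19.2 and 178.5 TPM, and Hcar2, the niacin receptor, at 75.1 and 300 TPM. Wnt10b, a Wnt ligand that restrains fat cell formation, stood at 1.67 and 56.97 TPM, 34.2-fold higher in the inguinal-labelled library (21.1 to 59.1), while mesentery fat had 6.15 TPM. Nrip1, a corepressor of thermogenic and oxidative genes, stood at 5.46 and 94.8 TPM, 17.4-fold higher (14.2 to 21.4). Serpina12, the vaspin gene, had 0 counts in brown fat and 14.45 TPM (96 counts) in the inguinal-labelled library, at least 35.2-fold higher at a floor of 3 counts. Cfd, the adipsin gene, stood at 8486 and 13583 TPM, under 2-fold apart.

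Members higher in brown fat included Retsat, retinol saturase, at 852 and 299 TPM, Nampt, which makes NAD from nicotinamide, at 249 and 92.2 TPM, and Sfrp5, a secreted Wnt antagonist, at 8.08 and 2.89 TPM. These 3 were 2.7-fold to 2.85-fold higher.

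**Figure D4:**
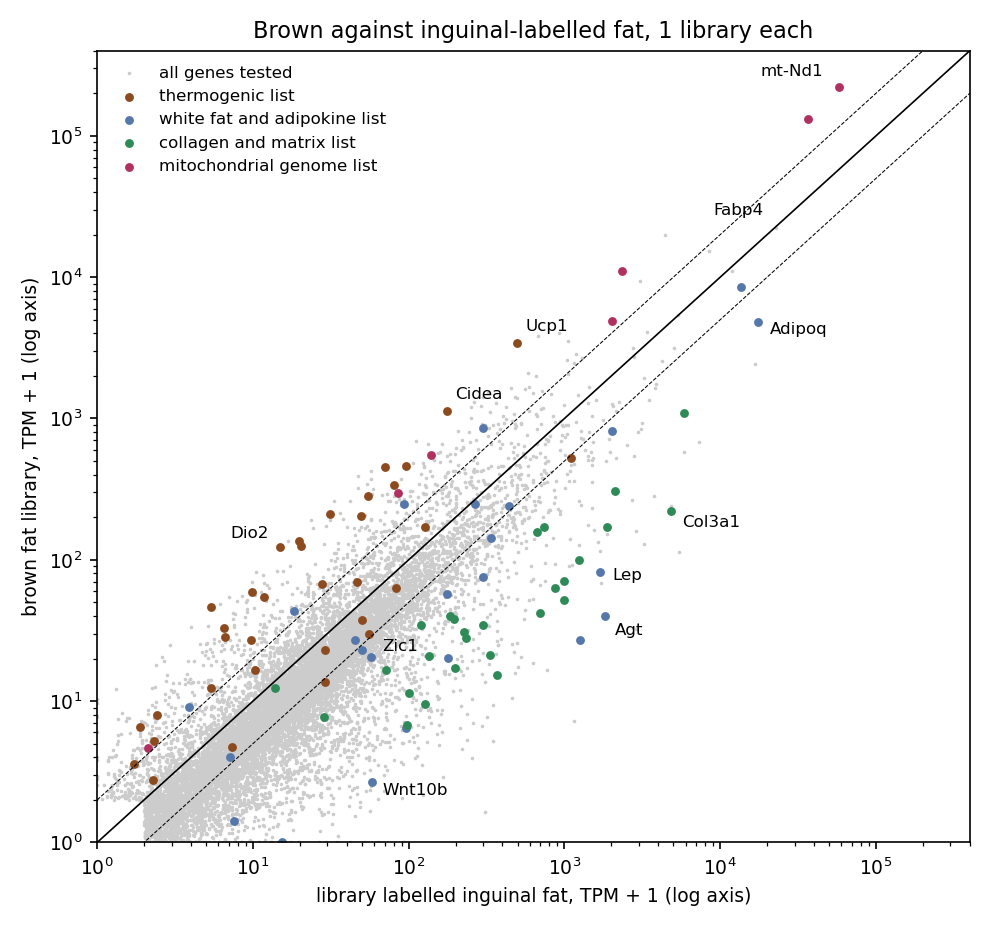
TPM plus 1 of 13281 genes in the inguinal-labelled library (x, log axis) and brown fat (y, log axis), with the line of equal level and dashed lines at 2-fold. Thermogenic genes (brown) lie mostly above the lines, white fat genes (blue) and matrix genes (green) below, and Fabp4 lies on the line of equal level.

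Lipid droplet and pan-adipocyte genes were mostly within 2-fold on TPM, as were most genes. Of 32, 22 were within 2-fold, beside 63.5% of all genes tested. At least 2-fold higher were 1 in brown fat and 9 in the inguinal-labelled library, beside 4.32% and 32.2% of all genes. The median was -0.18, or 0.55 relative to the median gene. Without the mt- rows 19 were within 2-fold. Past it were 6 toward brown fat and 7 toward the inguinal-labelled library, beside 8.08% and 17.8% of all genes. The median there was 0.34, so its sign depended on the scaling. Pnpla2, the first lipase of triglyceride breakdown, stood at 1182 and 727 TPM, and G0s2, its inhibitor, at 5383 and 5371 TPM. Lpl, the lipase that takes fatty acids from blood lipoproteins, stood at 1761 and 3864 TPM. Larger differences were found for Pnpla3, at 132 and 1651 TPM, and Car3, a carbonic anhydrase abundant in white fat, at 1122 and 5777 TPM.

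Of 21 fatty acid synthesis genes, 12 were at least 2-fold higher in the inguinal-labelled library and 1 in brown fat, with a median of -1.30, or 8 and 1 without the mt- rows. Fasn, the fatty acid synthase, was near equal at 715 and 763 TPM, as was Thrsp, its thyroid-responsive partner, at 11024 and 11950 TPM. The desaturases that follow differed: Scd1 stood at 2439 and 16679 TPM, 6.84-fold higher in the inguinal-labelled library (6.76 to 6.91), and Scd2 at 580 and 5883 TPM. Scd1, Scd2 and Scd3 are close copies whose reads may have been exchanged. Acacb, the acetyl-CoA carboxylase that governs fatty acid entry into mitochondria, was the 1 gene higher in brown fat, at 169 and 39.0 TPM, 4.33-fold (4.19 to 4.48). The plot of gene lists places these groups on 1 scale.

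**Figure D5:**
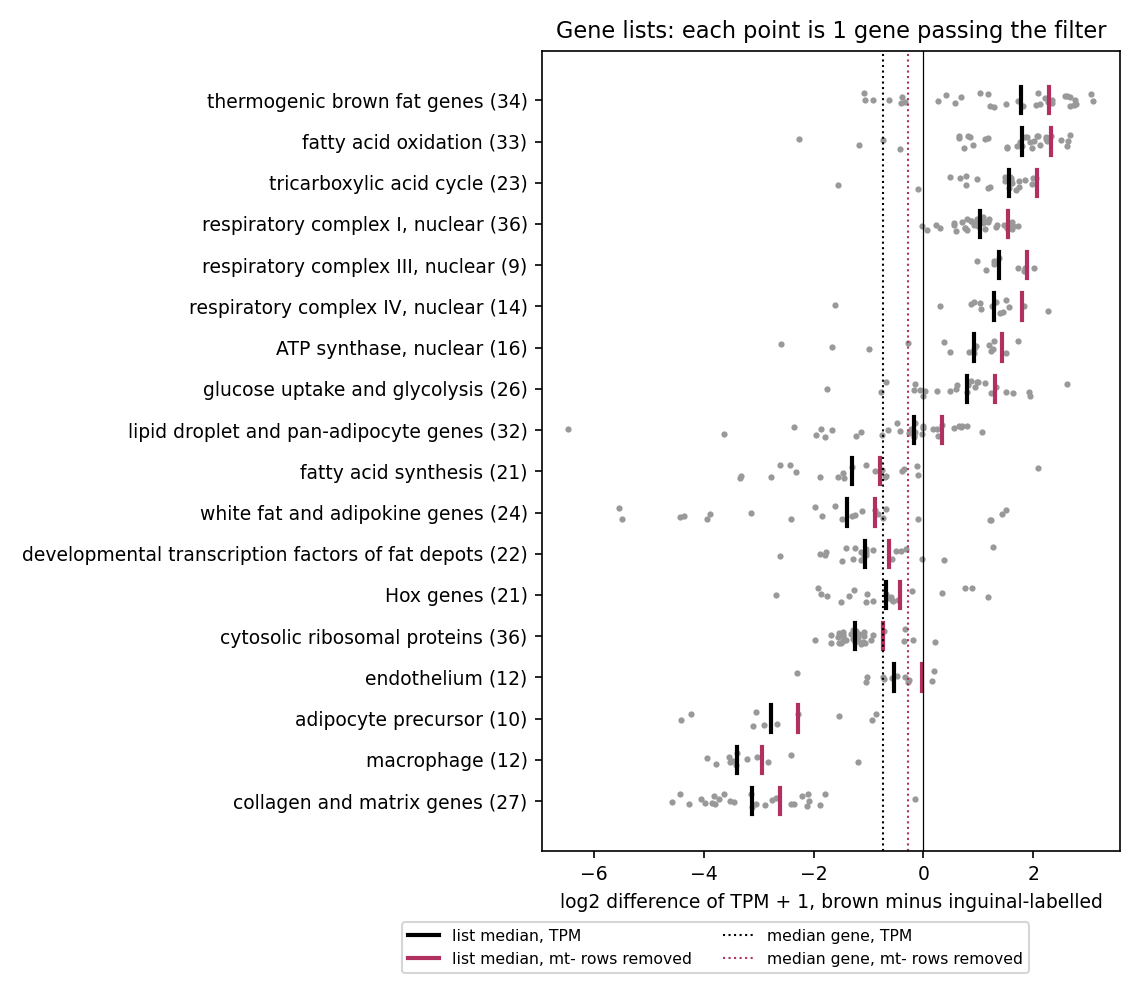
Log2 difference of TPM plus 1, brown minus inguinal-labelled, for each tested gene of 18 lists (grey points, number of genes in brackets), with the list median on TPM (black) and without the mt- rows (red); dotted lines mark the median gene. Medians run from 1.80 for fatty acid oxidation to -3.41 for macrophage genes.

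Genes of glucose use leaned to brown fat. Of 26, 8 were at least 2-fold higher in brown fat and 1 in the inguinal-labelled library, with a median of 0.80, and without the mt- rows 16 and 1. Slc2a4, the insulin-responsive glucose transporter, was near equal at 901 and 1023 TPM. Gpd2, the mitochondrial enzyme of the glycerol phosphate shuttle, stood at 167 and 43.5 TPM, while Gpd1, the cytosolic enzyme, stood at 15383 and 8481 TPM, ranks 1 and 4 of 59. Ldhb stood at 28.9 and 6.74 TPM, and Aldoc at 37.2 and 127 TPM.

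Developmental transcription factors of fat depots leaned to the inguinal-labelled library on TPM. Of 31 genes 22 passed the filter. On TPM 14 were at least 2-fold higher there and 1 in brown fat, with a median of -1.07, or -0.34 relative to the median gene. Without the mt- rows the counts were 5 and 1, and with the median gene set to 0 they were 4 and 2. The shares of all genes toward the inguinal-labelled library were 32.2%, 17.8% and 11.1% in the same order, so the lean depended on the scaling. The 1 gene at least 2-fold higher in brown fat on TPM was Tbx5, a heart and forelimb factor, at 3.53 and 0.888 TPM, 3.98-fold (2.58 to 6.35). Of the 21 Hox genes that passed, 9 were at least 2-fold higher in the inguinal-labelled library and 1 in brown fat, with a median of -0.69, level with the median gene. The counts were 5 and 3 without the mt- rows, and with the median gene set to 0 they were 4 and 4, so the lean of the Hox list depended on the scaling. The 1 gene past 2-fold toward brown fat on TPM was Hoxa7, at 16.3 and 6.70 TPM, while the largest difference the other way was in Hoxc4, at 4.15 and 32.1 TPM, 7.74-fold (5.07 to 12.3). Hoxa4 reached 108.6 TPM in brown fat, the highest of the series, and 58.3 TPM in the inguinal-labelled library.

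Factors that brown fat is known to secrete were split. Of 22, 19 passed the filter. On TPM 4 were at least 2-fold higher in brown fat and 8 in the inguinal-labelled library. The median was -0.63, or 0.09 relative to the median gene. The counts were 4 and 4 without the mt- rows, and 4 and 4 with the median gene set to 0. The shares of all genes toward the inguinal-labelled library were 32.2%, 17.8% and 11.1% in the same order. Toward brown fat they were 4.32%, 8.08% and 10.9%, so the lean of this list depended on the scaling. The higher ones in brown fat were Fgf1 at 17.3 and 5.58 TPM, Ephx2, an epoxide hydrolase that acts on signalling lipids, at 57.3 and 27.5 TPM, and the hormones Nrg4 at 11.4 and 4.34 TPM and Fgf21 at 2.56 and 0.731 TPM. Nrg4 rested on 20 and 7 counts and Fgf21 on 27 and 7, so their intervals of 1.06 to 7.33 and 1.49 to 9.54 were wide. Higher in the inguinal-labelled library were Pltp, a phospholipid transfer protein, at 6.88 and 94.5 TPM, Igf1 at 15.9 and 143 TPM, Bmp7 at 0.617 and 12.6 TPM and the chemokine Cxcl14 at 7.48 and 44.8 TPM. Vegfa, which draws blood vessels to fat, was near equal at 214 and 226 TPM.

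The 15 largest differences toward brown fat among genes with at least 10 TPM included 3 of the genes above, Acot11, Dio2 and Ucp3. Others were well covered: Fam151a stood at 394 and 46.6 TPM, 8.45-fold (7.98 to 8.96), Mfsd2a, a transporter of lysophospholipids, at 189 and 22.7 TPM, and Slc22a12, the urate transporter of the kidney tubule, at 134.6 and 15.9 TPM, 8.47-fold (7.80 to 9.20). Dmrt1, a transcription factor of the testis, stood at 259.5 and 32.1 TPM, above the 177 TPM of the testis library. Rhbdl3 stood at 32.5 and 3.02 TPM and Lgr6, an R-spondin receptor, at 53.1 and 6.01 TPM. Zswim7 had the largest ratio, 11.2 against 0.319 TPM, 35-fold, but with 7 counts in the lower library its interval ran from 16.7 to 87.8. Lrrc3, Foxb2, Gzmc, Apol9b and 1700067P10Rik rested on at most 95 counts in brown fat and at most 10 in the other library.

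The 15 largest differences toward the inguinal-labelled library were larger. Mfap4, a microfibril protein, stood at 0.648 and 309.5 TPM, 478-fold (232 to 1189), with 7 counts in brown fat. Cyp2e1, a cytochrome P450 best known from liver, stood at 6.22 and 1143 TPM, 184-fold (163 to 207), and at 1375 TPM in mesentery fat. The hepatocyte gene Alb had 0.319 and 0.978 TPM. Sncg, a synuclein abundant in white adipocytes, stood at 31.3 and 2872 TPM, 91.7-fold (83.9 to 100), Clec3b, a secreted lectin, at 112 and 5425 TPM, and Car5b, a mitochondrial carbonic anhydrase, at 1.17 and 123 TPM. Secreted antagonists of growth factors were among them: Frzb, which binds Wnt ligands, stood at 3.58 and 219 TPM, and Chrdl1, which binds bone morphogenetic proteins, at 15.6 and 773 TPM. Cfb, complement factor B, stood at 2.98 and 253 TPM, Clmp, an adhesion protein, at 4.202 and 348 TPM, and Tnfrsf11b, osteoprotegerin, at 1.90 and 165 TPM. Against 0 counts in brown fat, Cd209g was at least 76-fold higher, Lao1 at least 34.1-fold, Tmsb10 at least 10.6-fold and Zfp982 at least 4.04-fold.

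Nearly all connective tissue genes were higher in the inguinal-labelled library. Of 28 collagen and matrix genes 27 passed the filter, and 26 were at least 2-fold and 24 at least 4-fold higher in the inguinal-labelled library, with a median of -3.12; without the mt- rows 26 were past 2-fold. Col3a1, a fibrillar collagen, stood at 222 and 4847 TPM, 21.8-fold higher (21.5 to 22.2). Fn1, fibronectin, stood at 14.2 and 366 TPM, 25.8-fold (24.7 to 26.9), and Sparc, a collagen-binding protein, at 1089 and 5819 TPM. The list summed to 2764 TPM in brown fat and 23522 TPM in the inguinal-labelled library, with 13818 TPM in mesentery fat.

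Markers of 2 stromal cell types went with them. Of 10 tested markers of adipocyte precursors, 8 were at least 2-fold higher in the inguinal-labelled library, with a median of -2.78 and sums of 320 and 1208 TPM. Dpp4, a marker of interstitial progenitors, stood at 1.48 and 45.9 TPM, Pi16, of the same cells, at 49.7 and 379 TPM, and Pdgfra at 4.30 and 44.8 TPM. All 12 macrophage markers were at least 2-fold higher in the inguinal-labelled library, with a median of -3.41 and sums of 178.5 and 1971 TPM, and 11 without the mt- rows. Adgre1, the F4/80 antigen, stood at 7.90 and 136 TPM, 17.3-fold (13.6 to 22.1), and Csf1r at 14.6 and 181 TPM. None of the markers of either list was listed at 0. The part of these cells in the differences of Ucp2, Igf1, Pltp, Cfb, Wnt10b, Mfap4 and the matrix genes was not tested.

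Vessel and blood markers were closer. Of 12 endothelial markers, 3 were at least 2-fold higher in the inguinal-labelled library and 0 in brown fat, with a median of -0.53 on TPM and -0.02 without the mt- rows, or 0.19 relative to the median gene, and sums of 1751 and 2415 TPM. Cdh5, the junction protein of endothelium, stood at 570 and 691 TPM and Kdr, the receptor for Vegfa, at 127 and 114 TPM. Smooth muscle and pericyte markers summed to 989 and 1530 TPM, with 5 of 10 past 2-fold on TPM toward the inguinal-labelled library and 1 without the mt- rows. The 6 red cell markers were all within 2-fold, with sums of 7235 and 6131 TPM.

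Markers of other tissues that a biopsy could carry were far below their highest level in the survey. Skeletal muscle markers summed to 45.2 and 104.5 TPM, against 287429 TPM in a skeletal muscle library, and Myod1, the muscle determination gene, was listed at 0 in both. B cell markers summed to 7.38 and 19.3 TPM, against 9650 TPM in a duodenum library. Markers of lymph node stroma summed to 57.2 and 283 TPM, against 5039 TPM in the kidney artery library. Their median sum over the 57 libraries outside the pair was 362 TPM. Of the 8 that passed, 5 were at least 4-fold higher in the inguinal-labelled library and 1 was at least 2-fold higher in brown fat, with a median log2 difference of -2.76. Of these, Lyve1, a lymphatic and macrophage gene, stood at 4.03 and 91.5 TPM. The part of such cells in the matrix, precursor and macrophage differences was not tested. Mammary and other glandular markers summed to 95.1 and 79.4 TPM, with the milk genes Csn2 and Lalba listed at 0 in both. Of the 9 that passed the filter, 6 were at least 2-fold higher in the inguinal-labelled library and 1 in brown fat, with a median of -1.49, and without the mt- rows 5 and 1. Cldn3, a tight junction gene, took 82.2 and 13.4 TPM and was the 1 gene past 2-fold toward brown fat. Epcam, the general epithelial marker, had 0.480 and 0.423 TPM.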

How the data were processed

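The authors deposited expected counts and TPM for 18970 genes named by mouse symbols; per the submitters' processing notes the tools were RSEM and Bowtie 0.12.8. The genome or transcript build is not given in the sources used here. Both tables were read unchanged. RSEM shares reads among similar sequences, so close copies are uncertain, and TPM is relative to each library's total.

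The difference was log2((TPM + 1)/(TPM + 1)), for 13281 genes with at least 1 TPM and 10 expected counts in the higher library. Intervals came from counts rounded to whole numbers (exact binomial, 95%; scipy 1.17.1), were tested on simulated data, and cover counting error only. Against 0 counts a floor of 3 counts gave the bound. No test between the libraries was run. Members and lists were chosen with earlier results of these data known. Named genes were the 15 largest differences per direction among those with at least 10 TPM, members of the thermogenic, white fat, Hox, uncoupling, developmental and secreted lists, up to 4 members per direction or by level of each other list, label markers, and the 5 most abundant genes. Alternatives used edgeR 4.0.16 (TMM) and DESeq2 1.42.0 (size factors) for scaling only. Plin1 and Pparg were label markers. Alb, Myod1, Csn2, Lalba, Epcam and Atp5g2 were added after their values were seen. Sequences were not used here, and a few list members are not reported here by name.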

Additional observations from a re-analysis of the deposited data

How the results depend on the processing

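No paired analysis was possible because each side holds 1 library, and for the same reason no library could be left out. Scaling set the counts. Genes at least 2-fold higher in brown fat numbered 574 as reported, 1072 without the mt- rows, 1137 without the 10 most abundant genes, 1452 centred on the median gene, 1358 with TMM and 1372 with DESeq2 size factors. Genes at least 2-fold higher in the inguinal-labelled library numbered 4280 as reported and 2365, 2330, 1470, 1561 and 1541 in the same order, with 2369 at a pseudocount of 5. At 4-fold, brown fat had 126 genes as reported, 286, 306, 389, 365 and 372 in the same order, and 213 and 67 at pseudocounts of 0.1 and 5. The inguinal-labelled library had 1076, then 501 centred, 508 with TMM, 500 with DESeq2 size factors, and 1739 and 524 at pseudocounts of 0.1 and 5. Leaving out the filter, asking for 5 TPM or scaling expected counts to the library total moved no count by over 1.5 times. Under none of the 10 alternatives did a list median or named gene past 2-fold take the opposite sign. This check could hardly fail. A changed pseudocount or filter cannot reverse the sign of a gene. The rescalings moved the median gene from -0.73 to at most 0.00 in log2, less than the 2-fold required. Of 22 list medians past 2-fold, 15 were past it without the mt- rows, of 21 that could be computed there, and 13 with TMM. Depth limits genes under about 10 counts, such as Hoxc9.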

Other observations

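Of 36 cytosolic ribosomal protein genes, 29 were at least 2-fold higher in the inguinal-labelled library on TPM, with a median of -1.25. Without the mt- rows 6 were, and 1 with the median gene set to 0. The shares of all genes were 32.2%, 17.8% and 11.1% in the same order, so the lean of this list depended on the scaling. Rps4x, a small subunit protein, stood at 229 TPM in brown fat and 904 TPM in the inguinal-labelled library, and Rplp1, a large subunit stalk protein, at 464 and 1103 TPM. Of 21 genes of branched-chain amino acid breakdown, with a median of 0.40 against -0.73 over all genes, 1 was at least 2-fold higher in brown fat on TPM and 7 without the mt- rows, and 0 were higher in the inguinal-labelled library. That gene was Dld, a subunit shared with pyruvate dehydrogenase, at 166 and 51.1 TPM.

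Of 18 core clock genes, 3 were at least 2-fold higher in the inguinal-labelled library and 1 in brown fat on TPM, a share below the 32.2% of all genes in the first direction. Without the mt- rows the counts were 1 and 2 and the median went from -0.45 to 0.05, so the direction depended on the scaling. Arntl, which encodes BMAL1, stood at 2.56 and 7.80 TPM and Cry2 at 4.32 and 13.6 TPM, while Nr1d1 stood at 44.5 and 24.4 TPM. Of 14 genes of other heat-producing cycles 9 passed the filter. On TPM 3 were at least 2-fold higher in the inguinal-labelled library and 1 in brown fat. The counts were 1 and 2 without the mt- rows, and 1 and 3 with the median gene set to 0. The shares of all genes toward the inguinal-labelled library were 32.2%, 17.8% and 11.1% in the same order, so the lean depended on the scaling. Gamt, which makes creatine, stood at 167 and 101 TPM. Ckmt2, mitochondrial creatine kinase, stood at 6.64 and 1.44 TPM while Gatm, which makes the creatine precursor, stood at 0.774 and 9.46 TPM, the brown fat level being 58th of 59. Ckb, the cytosolic creatine kinase, stood at 26.1 and 20.3 TPM.

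Of 27 genes of mitochondrial biogenesis and dynamics, 7 were at least 2-fold higher in brown fat and 0 in the inguinal-labelled library, with a median of 0.63, and 17 and 0 without the mt- rows. Perm1, a muscle-type regulator of oxidative genes, stood at 38.0 and 13.7 TPM and Immt, which shapes mitochondrial cristae, at 326 and 128 TPM. Mc2r, the adrenocorticotropin receptor gene, stood at 1.32 and 52.2 TPM, with 104 TPM in mesentery fat, while the steroid enzyme gene Cyp11a1 stood at 2.34 and 0.628 TPM. Pancreatic acinar markers, which summed to 421592 TPM in a pancreas library, summed to 20.8 and 103 TPM. Their median sum over the 57 libraries outside the pair was 20.5 TPM. On TPM all 9 tested were at least 2-fold higher in the inguinal-labelled library. Without the mt- rows 7 were, and 4 with the median gene set to 0. The shares of all genes were 32.2%, 17.8% and 11.1% in the same order. Peripheral nerve markers summed to 177 and 350 TPM, T cell markers to 11.7 and 43.2 TPM and neutrophil markers to 94.3 and 148 TPM.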
